A study of Mus musculus with 9 samples.

Results

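Forkhead genes encode transcription factors that share a winged-helix DNA-binding domain, and 44 of the 27179 gene rows of the count table belonged to this family. They were chosen by a rule on names, as protein-coding mouse genes whose symbol is Fox followed by a subfamily letter and a number. That rule, like the gene lists used below, was set with earlier results of these data known. The cells were pneumospheres, spheres grown in suspension from lungs of C57/B6 mouse embryos at E11.5. Lungs were dissociated with trypsin, the cells that settled on plain plastic within an hour were discarded, and the rest were grown at 50000 cells per ml with 20 ng/ml bFGF, 10 ng/ml EGF and heparin, at 5% O2 and 10% CO2. All 9 libraries share this treatment and differ in culture day, with 3 libraries each on days 3, 7 and 10. Spheres were split on days 3 and 7, and no untreated lung or other reference group stands beside them, so the days can only be compared with each other. Nothing in the labels ties the 3 libraries of a day to separate cultures or litters, so p-values measure only the spread between samples, which may be technical.

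Forkhead factors bind DNA through a recognition helix that lies in the major groove, and several can open closed chromatin. In the embryonic lung, Foxa1 and Foxa2 act in the endoderm that becomes airway epithelium, Foxf1, Foxf2 and Foxl1 act in the mesenchyme around it under Hedgehog signalling, and Foxp1, Foxp2 and Foxp4 act as repressors in distal epithelium and other lung cells. Other members are not tied to 1 tissue: Foxm1 drives genes of mitosis, and the FoxO proteins are held out of the nucleus by Akt when growth factors are plentiful.

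Part of the coding sequence of the recognition helix is shown for members on which the results turn. These 24 bases were located in the GENCODE M21 transcripts (build GRCm38) by a set amino acid pattern. The pattern was N, then S, T or A, then I, V or L, then RHNL, so likeness within the stretch was largely fixed by the search. Capitals mark bases unlike those of Foxf1.
Foxf1: aactccgtgcgccacaacctgtcg (chr8:121084678-121084701, plus strand)
Foxf2: aactccgtgcgccacaacctCtcg (chr13:31626515-31626538, plus strand)
Foxl1: aacAGcAtCcgccacaacctgtcg (chr8:121128244-121128267, plus strand)
Foxc2: aacAGcAtCcgccacaacctgtcA (chr8:121116963-121116986, plus strand)
Foxd2: aaTAGcAtCcgccacaacctCtcC (chr4:114908276-114908299, minus strand)
Foxs1: aacAGcAtCcgccaTaacctgtcT (chr2:152932919-152932942, minus strand)
Foxm1: aactcTAtTcgTcacaacctTtcT (chr6:128370957-128370980, plus strand)
Foxo3: aactccAtCcgGcacaacctgtcC (chr10:42197878-42197901, minus strand)
Foxf1 and Foxf2 differed at 1 base of the 24, and Foxl1 at 4. A match to the pattern was found in 39 of the 44 members, and a member without a match need not lack the helix.

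Library totals lay between 20716878 and 30466712 counts, and a count of 0 in a library allows up to 0.0985 to 0.145 CPM (3 counts, counting error only). Forkhead rows held 0.0832% to 0.102% of the counts of a library. Transcripts of 10 epithelial marker genes summed to 1.21 to 2.47 CPM over the 9 libraries, and the epithelial cadherin gene Cdh1 had no count on day 10, although the culture protocol in the labels is meant to enrich epithelium. Those of 9 mesenchymal markers summed to 14580 to 16330 CPM on day 3, 28080 to 33670 CPM on day 7 and 42420 to 48220 CPM on day 10. Day 3 replicate 2 stood apart in that 6.79% of its counts lay in 1 gene ID without a name. Day 10 replicate 3 stood apart in its low mitotic transcripts, given with Foxm1.

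Of the 44 members, 24 passed the filter on low counts and were tested, 12 had counts but did not pass, and 8 had none in any library. The 8 at 0 were Foxa1, Foxb1, Foxb2, Foxd4, Foxi2, Foxi3, Foxn1 and Foxr1. Foxa1 is an endodermal pioneer factor of the lung. Its partner Foxa2 had 14 counts over the day 3 libraries, 2 on day 7 and 4 on day 10, and did not pass. Foxd1, a factor of kidney stroma, had 14, 14 and 10 counts on the 3 days. Foxq1, which has roles in hair and stomach, had 8, 2 and 0. Its gene model shares 66.1% of its exon bases with a gene on the opposite strand, and whether counting used strand is not given in the sources used here. No member outside the tested 24 exceeded 0.576 CPM in any library. Statements on tested members below cover these 24, which are not all forkhead genes. A member detected on a single day could pass the filter through that day alone.

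CPM values (reads scaled to library size by TMM) were divided by exon length in kilobases to compare genes with each other. On this scale the forkhead sum lay between 154.5 and 158.2 CPM per kb on day 3, 166.8 and 171.6 on day 7, and 155.1 and 171.0 on day 10. FoxK genes held the largest subfamily share in all 9 libraries but 1, day 10 replicate 3, where FoxO held a little more. The FoxM share was 15.1% ± 0.657 (SD, n = 3) on day 3, 11.53% ± 1.36 on day 7 and 6.63% ± 1.87 on day 10. FoxS, with Foxs1 as its sole member, had a share of 0.209% ± 0.0689 on day 3, 4.68% ± 0.884 on day 7 and 7.66% ± 1.81 on day 10. FoxC had 3.55% ± 0.434, 9.70% ± 0.383 and 9.61% ± 2.08 on the 3 days. These shares sum to a fixed total, so a larger share of one subfamily means a smaller share of others.

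**Figure D1:**
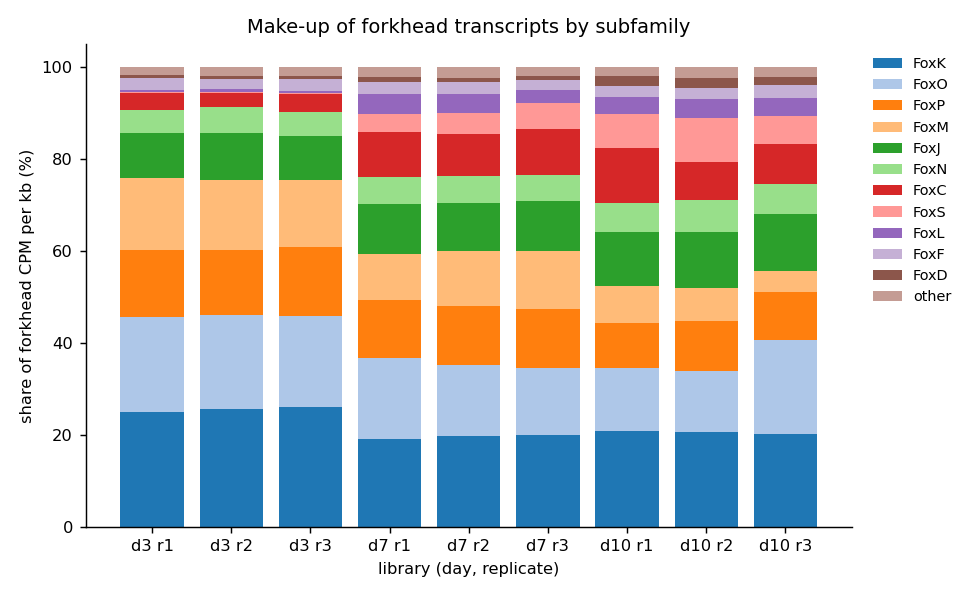
Bars give the share of forkhead CPM per kb (percent, vertical axis) held by each subfamily in each of the 9 libraries (horizontal axis, day and replicate). The FoxM band narrows from day 3 to day 10, and the FoxS, FoxL and FoxC bands are wider on days 7 and 10 than on day 3.

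The order of members by level per kb changed with the days. On day 3 the highest was Foxk2 at 27.3 ± 0.919 CPM per kb, then Foxm1 at 23.7 ± 0.882 and Foxo4 at 17.9 ± 1.22, and these 3 did not overlap between libraries. Foxs1 ranked 22 of 24 on day 3 at 0.328 ± 0.111 CPM per kb, where its libraries overlapped those of Foxd2 and Foxj1. By day 10 Foxs1 ranked 6 at 12.5 ± 3.60 CPM per kb, and Foxm1 ranked 8 at 10.8 ± 3.28. The libraries of Foxk1, Foxo4, Foxc2, Foxp4, Foxs1, Foxj2 and Foxm1, ranks 2 to 8, each overlapped those of the next rank on day 10, so their order there is not resolved.

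**Figure D2:**
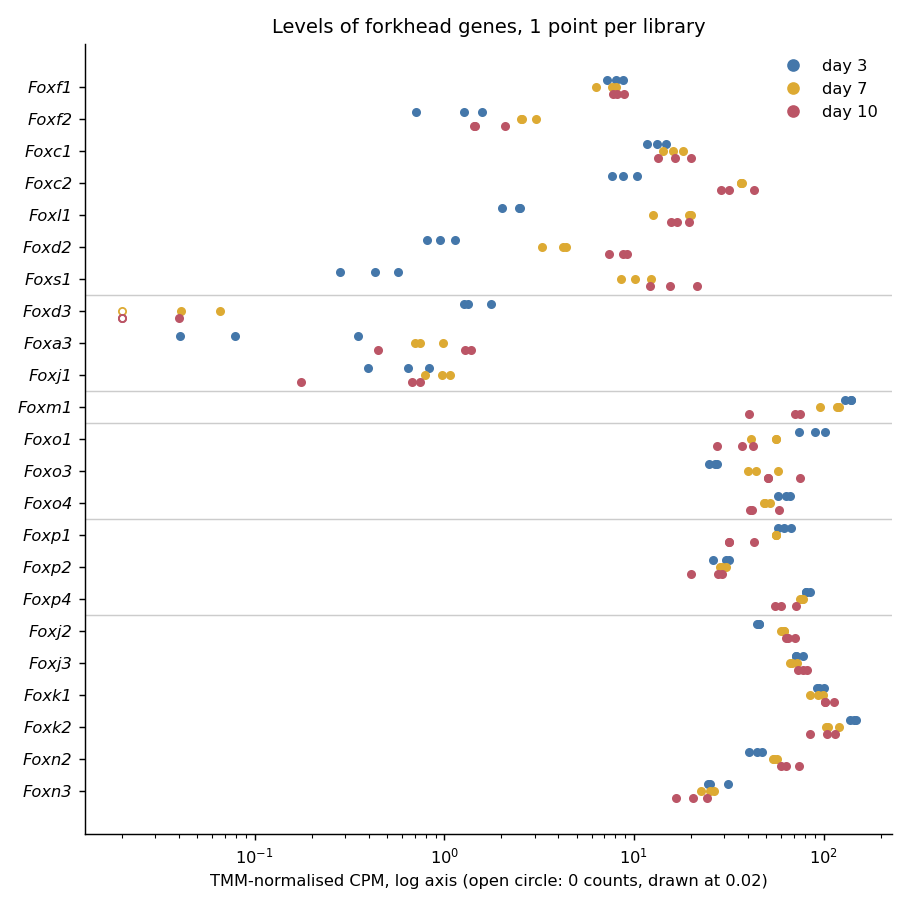
Each point is 1 library's level of a tested forkhead gene described here (TMM-normalised CPM, log axis), coloured by day, with genes grouped by role and an open circle for 0 counts. Foxs1, Foxd2, Foxl1 and Foxc2 lie to the right on days 7 and 10 of their day 3 points, Foxd3 lies to the left, and the days of Foxf1 overlap.

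In edgeR's quasi-likelihood test with Benjamini-Hochberg adjustment over all 14940 genes tested, 12 of the 24 members differed in day 7 spheres against day 3 spheres, 9 higher and 3 lower. Of all genes tested, 41.8% differed, 22.8% higher and 19% lower. On day 10 against day 3, 16 members differed, 8 higher and 8 lower, where 56.7% of all genes differed, 29.5% higher and 27.2% lower. On day 10 against day 7, 3 members differed, 1 higher and 2 lower, where 8.51% of all genes differed, 4.41% higher and 4.1% lower. The median absolute log2 change on day 10 against day 3 was 0.53 over the 24 members and 0.43 over all genes. Changes of at least 2-fold on day 7 against day 3 were called in 6 members upward and 1 downward, where 8.98% and 5.29% of all genes had them. They were called on day 10 against day 3 in 6 members upward and 3 downward, where 12.7% and 9.1% of all genes had them. Foxd2 alone was called at that size, upward, on day 10 against day 7, where 1.29% of all genes were called higher and 1.49% lower. These comparisons share libraries of a day and are not independent of each other.

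**Figure D3:**
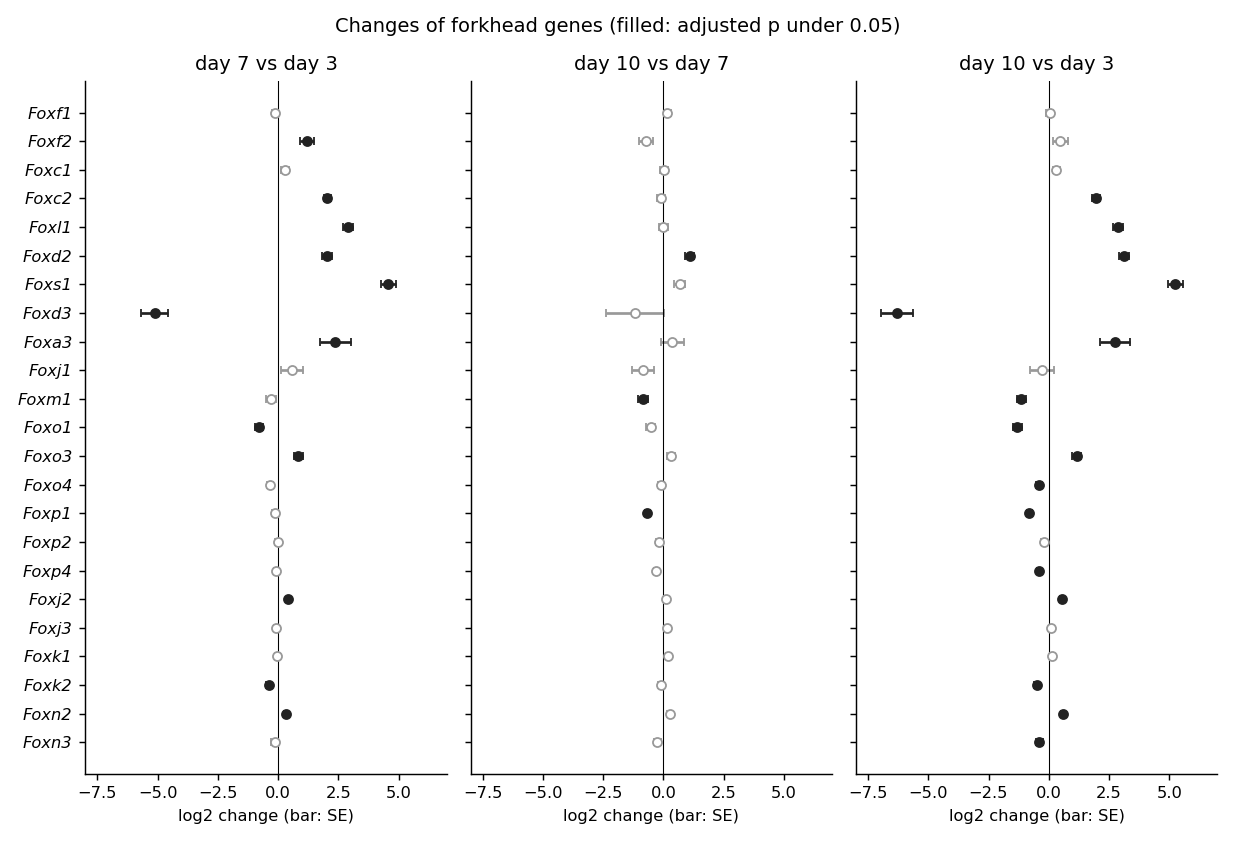
Each panel gives the log2 change with its SE (horizontal axis) of tested members described here (vertical axis) in 1 comparison of days, later over earlier, with filled points for an adjusted p under 0.05. Foxs1, Foxl1, Foxc2 and Foxd2 lie far to the right and Foxd3 far to the left on day 7 against day 3, and Foxd2, Foxm1 and Foxp1 are the filled points on day 10 against day 7.

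Foxs1, Foxd2, Foxl1 and Foxc2, known from mesenchyme or vessel walls, rose at least 2-fold on days 7 and 10 against day 3, as did Foxa3, while mesenchymal Foxf1 and Foxc1 passed no test. Foxs1, known from pericytes and peripheral sensory neurons (Entrez 14239, chromosome 2, 152931898 to 152933208, a single exon), had 0.283, 0.434 and 0.573 CPM in the day 3 libraries, 8.55, 10.1 and 12.3 CPM on day 7, and 15.6, 21.5 and 12.2 CPM on day 10. Every later library was above every day 3 library, while days 7 and 10 overlapped. With 7, 11 and 13 counts on day 3, Foxs1 passed the filter through days 7 and 10, so a rise from day 3 was the change that it could show. On day 10 against day 3 its log2 change was 5.25 (SE 0.31, edgeR adjusted p = 1.03e-06). In bulk RNA a change in the number of cells of a type cannot be told apart from a change in RNA per cell, here and in all results that follow. Day 10 against day 7 missed the threshold (log2 change 0.67, adjusted p = 0.0967), with an adjusted p of 0.0259 without day 10 replicate 3.

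Foxd2, expressed in kidney and facial mesenchyme (Entrez 17301, chromosome 4, 114906280 to 114908898), was the only tested member called higher in both steps. Foxj2 and Foxn2 also rose in each step without overlap of days, but day 10 against day 7 missed the threshold for both. Foxd2 had 0.809, 0.947 and 1.15 CPM on day 3, 4.21, 4.40 and 3.28 CPM on day 7, and 8.73, 9.25 and 7.41 CPM on day 10. The 3 days did not overlap. Its log2 change was 2.03 (SE 0.21, edgeR adjusted p = 5.47e-05) on day 7 against day 3 and 1.09 (SE 0.18, adjusted p = 0.00919) on day 10 against day 7. The non-coding gene Foxd2os starts 358 bases beyond the annotated end of Foxd2, on the side of the Foxd2 start, and averaged 0.954 ± 0.138, 4.11 ± 0.418 and 10.8 ± 3.33 CPM on the 3 days. Its log2 change on day 10 against day 3 was 3.50 (SE 0.26, adjusted p = 3.80e-06), against 3.13 (SE 0.21, adjusted p = 1.84e-06) for Foxd2. Foxe3, a lens factor 15.5 kb away, had 0, 4 and 6 counts on the 3 days.

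Foxf1, Foxc2 and Foxl1 lie in this order on chromosome 8, with 28.0 kb between Foxf1 and Foxc2 and 8.8 kb between Foxc2 and Foxl1. Foxc2 and Foxl1 both rose after day 3, while Foxf1 passed no test. Foxf1, the Hedgehog-responsive factor of lung and gut mesenchyme (Entrez 15227, 121084386 to 121088154), had 8.09, 7.26 and 8.77 CPM on day 3, 8.09, 7.65 and 6.32 CPM on day 7, and 8.13, 7.73 and 8.82 CPM on day 10. The libraries of all 3 days overlapped, and its log2 change on day 10 against day 3 was 0.03 (SE 0.14, edgeR adjusted p = 0.847). Foxc2, a factor of paraxial mesoderm, vessels and lymphatics (Entrez 14234, 121116171 to 121118895), had 8.78, 7.69 and 10.4 CPM on day 3, 36.8, 36.9 and 37.3 CPM on day 7, and 43.0, 31.9 and 28.9 CPM on day 10. Its day 7 and day 10 libraries all lay above its day 3 libraries. The log2 change on day 7 against day 3 was 2.05 (SE 0.16, adjusted p = 1.06e-05).

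Foxl1, a marker of mesenchymal cells next to gut epithelium (Entrez 14241, 121127685 to 121130644), had 2.51, 2.49 and 2.03 CPM on day 3, 20.0, 19.5 and 12.6 CPM on day 7, and 15.7, 19.5 and 16.8 CPM on day 10. Days 7 and 10 overlapped and both lay above day 3, with a log2 change of 2.89 (SE 0.20, edgeR adjusted p = 6.31e-06) on day 7 against day 3. Per kb, Foxl1 stood at 1.89 ± 0.315 times Foxf1 on day 10 and 0.263 ± 0.0511 times on day 3. Foxc2 stood at 3.75 ± 0.899 times Foxf1 on day 10 and 0.982 ± 0.0567 times on day 3. Neither ratio overlapped between these days, and the exact two-sided permutation test gave p = 0.1 for each, the smallest that 3 against 3 libraries can give. Fendrr, a non-coding gene 1275 bases from Foxf1, averaged 1.24 ± 0.226, 2.40 ± 0.939 and 3.58 ± 0.640 CPM on the 3 days, with a log2 change of 1.53 (SE 0.32, edgeR adjusted p = 0.00244) on day 10 against day 3.

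On chromosome 13, Foxq1, Foxf2 and Foxc1 lie in this order, with 64.8 kb and 175.2 kb between them. Foxf2, the paralogue of Foxf1 in mesenchyme and pericytes (Entrez 14238, 31625816 to 31631406), had 1.58, 0.710 and 1.28 CPM on day 3, 2.57, 2.55 and 3.04 CPM on day 7, and 1.44, 2.08 and 1.45 CPM on day 10. Day 7 lay above both other days. The log2 change was 1.19 (SE 0.29, edgeR adjusted p = 0.00900) on day 7 against day 3, and -0.71 (SE 0.29, adjusted p = 0.150) on day 10 against day 7, which missed the threshold. Foxc1, a factor of mesoderm, eye and vessels (Entrez 17300, 31806646 to 31810635), had 14.8, 11.7 and 13.3 CPM on day 3, 16.1, 14.2 and 18.1 CPM on day 7, and 19.9, 13.3 and 16.6 CPM on day 10. All 3 days overlapped, and day 10 against day 3 gave a log2 change of 0.32 (SE 0.16, adjusted p = 0.116). It passed without day 10 replicate 2 (adjusted p = 0.0294) and when the fit had a replicate block (adjusted p = 0.0482). Per kb, Foxc2 stood at 4.50 ± 0.703 times its paralogue Foxc1 on day 10 and at 1.45 ± 0.203 times on day 3. The exon length used for Foxc1 is 1.46 times the length of its RefSeq gene, so the size of this ratio depends on the gene model, while its change between days does not.

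**Figure D4:**
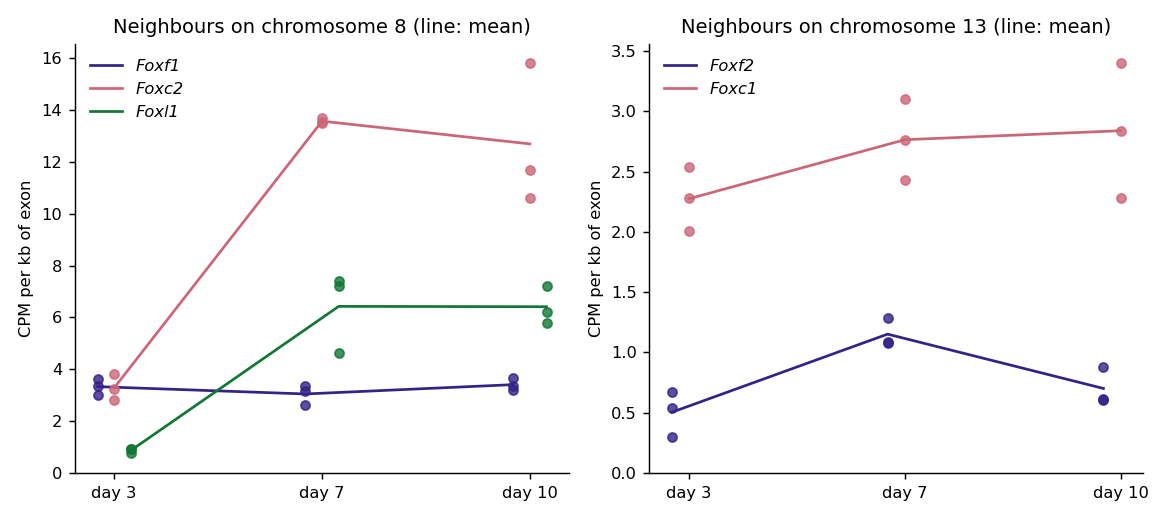
Levels per library (CPM per kb of exon, vertical axis) of neighbouring forkhead genes by culture day (horizontal axis), with points for libraries and lines for means. On chromosome 8, Foxc2 and Foxl1 climb above Foxf1 after day 3, and on chromosome 13 Foxf2 is highest on day 7.

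The second step, day 10 against day 7, was set against the first, day 7 against day 3, in 1 contrast of the same fit. Its log2 change was lower in 4 members, Foxs1, Foxl1, Foxc2 and Foxf2, where 8.03% of all genes differed, 5.96% lower and 2.06% higher. The difference of the log2 changes was -3.91 (SE 0.44, edgeR adjusted p = 0.000892) for Foxs1, -2.89 (SE 0.31, adjusted p = 0.000678) for Foxl1, -2.15 (SE 0.25, adjusted p = 0.00109) for Foxc2 and -1.91 (SE 0.48, adjusted p = 0.0398) for Foxf2. The Foxf2 call was lost in 8 of 19 alternatives. It was lost without day 3 replicate 2 or 3, without any single day 7 library or without day 10 replicate 1, with adjusted p up to 0.134, and when the fit had a replicate block (adjusted p = 0.0614). Foxp1 gained a call, toward a lower second step, without day 10 replicate 3 (adjusted p = 0.00720). For Foxd2 the difference was -0.94 (SE 0.32, adjusted p = 0.117). The steps span 4 and 3 days, and both began with a split.

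Markers of other cells moved with these genes. Of 9 mesenchymal markers, all 9 rose on day 10 against day 3, among them Col3a1 (log2 change 1.26, SE 0.12), Col1a1 (1.60, SE 0.13), Col1a2 (2.24, SE 0.11) and Dcn (2.75, SE 0.12). Of 8 smooth muscle and pericyte markers, Acta2, Cspg4, Tagln and Myh11 rose and Rgs5 fell, and their sum was 750.5 to 1038 CPM on day 10 and 278.3 to 290.4 CPM on day 3. What part these cells had in the forkhead changes was not tested. Of the Hedgehog arm upstream of Foxf1, 7 of 11 genes were tested, and on day 10 against day 3 the target gene Gli1 rose and the repressor gene Gli3 fell. Gli1 averaged 1.56 ± 0.803 CPM on day 10 and 0.0576 ± 0.0678 CPM on day 3. The ligand gene Shh had no count in any library, and the receptor gene Smo was at 236 CPM on day 10 and 236 CPM on day 3. The median log2 change of the 7 was -0.00283, against 0.00184 over all genes.

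Of 13 lung mesenchyme factors and signals around Foxf1, 2 rose and 8 fell on day 10 against day 3, with a median log2 change of -1.08. Among those that fell were the homeobox genes Meis2 (log2 change -1.40, SE 0.07) and Meis1 (-0.91, SE 0.08), the T-box gene Tbx3 (-1.08, SE 0.14) and Hoxa5 (-1.17, SE 0.18), each with an edgeR adjusted p of 0.000387 or less. Those that rose were the growth factor genes Fgf10 and Wnt2, by 0.95 and 1.85 on the log2 scale.

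Foxd3, which keeps neural crest cells multipotent (Entrez 15221, chromosome 4, 99656299 to 99658671), was almost lost after day 3. It had 33, 45 and 29 counts in the day 3 libraries, 2, 1 and 0 on day 7, and 0, 1 and 0 on day 10. By pooled counts, day 7 was 39.4-fold lower than day 3 (95% counting interval 13.1 to 194) and day 10 was 108-fold lower than day 3 (19 to 4310). The edgeR log2 change against day 3 was -5.12 (SE 0.56, adjusted p = 8.79e-05) on day 7 and -6.31 (SE 0.67, adjusted p = 3.38e-05) on day 10. Foxd3 passed the filter through its day 3 libraries alone, so a fall was the change that it could show. Of 10 markers of neural crest, neurons and glia, 9 fell on day 10 against day 3. Their sum was 16.7 to 19.3 CPM on day 10 and 152.3 to 199.6 CPM on day 3. Ret, a receptor of enteric neural crest, averaged 1.66 ± 0.953 CPM on day 10 and 59.0 ± 8.98 CPM on day 3. What part a loss of these cells had in the Foxd3 change was not tested.

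Foxm1, which drives genes of mitosis (Entrez 14235, chromosome 6, 128362994 to 128375886), fell. It had 139.4, 139.1 and 130.4 CPM on day 3, 96.4, 118.0 and 121.1 CPM on day 7, and 75.1, 70.8 and 40.5 CPM on day 10. The days did not overlap, and day 10 replicate 3 was the lowest library. On day 10 against day 3 the log2 change was -1.14 (SE 0.20, edgeR adjusted p = 0.00100), and -0.90 (adjusted p = 3.31e-05) without that library. On day 10 against day 7 it was -0.85 (SE 0.20, adjusted p = 0.0324), a call lost in 6 of 20 alternatives, with adjusted p up to 0.117. The call ended without day 3 replicate 1 (adjusted p = 0.0524), day 3 replicate 2 (0.0505), day 7 replicate 2 (0.117) or day 7 replicate 3 (0.0908). Day 7 against day 3 missed the threshold (log2 change -0.29, adjusted p = 0.272) and passed without day 10 replicate 3 (adjusted p = 0.0210), which enters through the shared estimate of spread.

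The 16 listed target genes of Foxm1 summed to 2278, 2208 and 2284 CPM on day 3, 1309, 1776 and 1628 CPM on day 7, and 1096, 1012 and 534.1 CPM on day 10. By this sum, as by Foxm1 itself, the day 3 libraries were the highest and day 10 replicate 3 the lowest. On day 10 against day 3, 15 of the 16 fell and 1 rose, with a median log2 change of -1.49. All 16 were called in each of 20 alternatives. Among those that fell were Top2a, which untangles chromosomes (log2 change -1.65, SE 0.30, edgeR adjusted p = 0.00121), the mitotic kinase gene Cdk1 (-0.97, SE 0.20, adjusted p = 0.00230), the cyclin gene Ccna2 (-1.33, SE 0.29, adjusted p = 0.00312) and the centromere gene Cenpf (-1.65, SE 0.21, adjusted p = 0.000154). Aurkb, the mitotic kinase named in the study's title, was among the other 11. Cdc25b, a phosphatase that starts mitosis, was the 1 that rose (0.49, adjusted p = 0.00748). For the single steps the number called depended on the libraries: 7 of 16 on day 7 against day 3 (2 to 15 over alternatives), close to the 41.8% called over all genes, and 5 of 16 on day 10 against day 7 (0 to 14), where 8.51% of all genes were called. Many of these genes are shared by all dividing cells, and a change in the share of dividing cells cannot be told apart from a change within them.

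FoxO members moved in opposite directions. Foxo1 (Entrez 56458, chromosome 3, 52268337 to 52350109) had 90.5, 102.2 and 74.0 CPM on day 3, 56.2, 56.5 and 41.6 CPM on day 7, and 27.4, 37.3 and 42.6 CPM on day 10. Days 7 and 10 overlapped and both lay under day 3. The log2 change on day 10 against day 3 was -1.31 (SE 0.19, edgeR adjusted p = 0.000279). Foxo3 (Entrez 56484, chromosome 10, 42181845 to 42276695) had 25.0, 26.8 and 27.6 CPM on day 3, 57.8, 44.1 and 39.8 CPM on day 7, and 50.7, 51.0 and 74.9 CPM on day 10. Its later libraries all lay above day 3, with a log2 change of 1.15 (SE 0.18, adjusted p = 0.000425) on day 10 against day 3.

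Per kb, Foxo3 stood at 0.348 ± 0.0686 times Foxo1 on day 3, 1.06 ± 0.146 times on day 7 and 1.90 ± 0.292 times on day 10, with no overlap between days. The exact two-sided permutation test of day 10 against day 3 gave p = 0.1, the smallest that 3 against 3 libraries can give. Foxo4 (Entrez 54601, chromosome X, 101254261 to 101260873) had 63.1, 57.8 and 66.3 CPM on day 3, 52.4, 48.3 and 49.1 CPM on day 7, and 41.7, 40.9 and 58.3 CPM on day 10. Day 10 replicate 3 was above the day 3 minimum and the other day 10 libraries were below it. The log2 change on day 10 against day 3 was -0.41 (SE 0.13, edgeR adjusted p = 0.0206), and the call was lost in 5 of 20 alternatives. It was lost without day 3 replicate 1 or 3 or without day 10 replicate 1 or 2, with adjusted p up to 0.0745. Day 7 against day 3 missed the threshold and passed without day 10 replicate 3 (adjusted p = 0.00484) and when the fit had a replicate block (adjusted p = 0.0489). Foxo6, a brain member, did not pass the filter, with 86 counts over all 9 libraries.

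**Figure D5:**
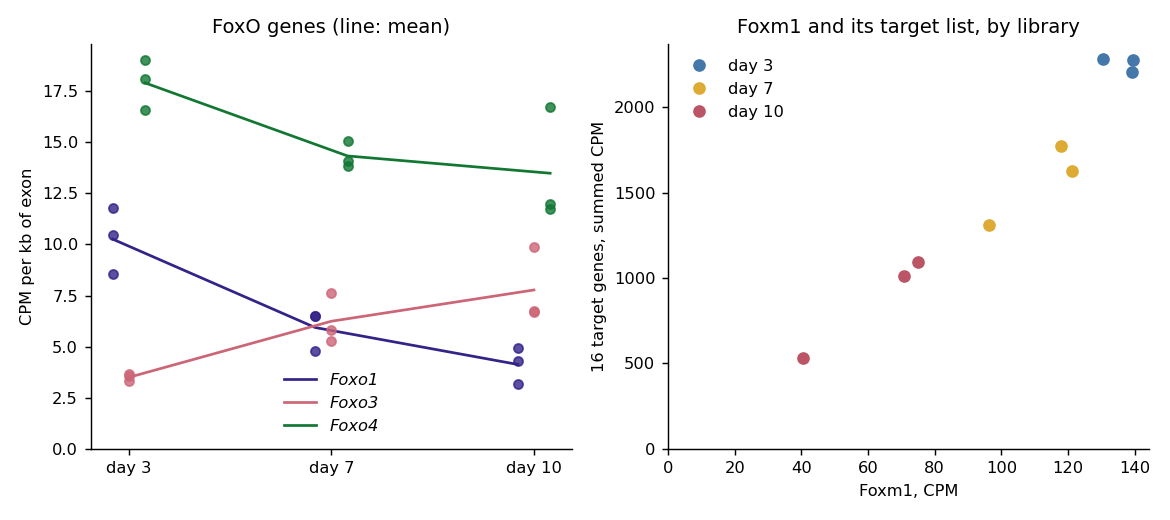
Left, levels of the FoxO genes per library (CPM per kb of exon) by culture day, with lines for means. Right, summed CPM of 16 Foxm1 target genes against Foxm1 CPM, 1 point per library, in which day 10 replicate 3 is lowest on both axes (40.5 and 534.1 CPM).

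Of 18 tested FoxO target genes, 8 rose and 2 fell on day 10 against day 3, with a median log2 change of 0.29. Over all genes 56.7% were called in this comparison and the median was 0.00184, so the share called among these targets was close to the background. By mean level, the first 4 of those called were the cell cycle inhibitor gene Cdkn1b (log2 change 0.72, SE 0.16, edgeR adjusted p = 0.00367), the sestrin gene Sesn1 (0.73, SE 0.07, adjusted p = 2.43e-05), the catalase gene Cat (0.42, SE 0.09, adjusted p = 0.00217) and the atypical cyclin gene Ccng2, which fell (-0.46, SE 0.11, adjusted p = 0.00578). Of the 13 genes of the PI3K and Akt arm, which acts on FoxO proteins by phosphorylation, 5 rose and 1 fell, a smaller share than the 56.7% called over all genes. Those that rose included Sgk1, a kinase that also acts on FoxO (log2 change 2.02, SE 0.19, edgeR adjusted p = 2.14e-05), and Pik3r1, a regulatory subunit of PI3K (0.57, SE 0.07). Phosphorylation and protein location were not measured.

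Promoters of 4 members that changed are shown as RefSeq gives them (build GRCm38.p6), 250 bases before to 50 after the start, on the gene's strand. Capitals mark CCAAT, read as ATTGG on the other strand, and CACGTG.
Foxo1: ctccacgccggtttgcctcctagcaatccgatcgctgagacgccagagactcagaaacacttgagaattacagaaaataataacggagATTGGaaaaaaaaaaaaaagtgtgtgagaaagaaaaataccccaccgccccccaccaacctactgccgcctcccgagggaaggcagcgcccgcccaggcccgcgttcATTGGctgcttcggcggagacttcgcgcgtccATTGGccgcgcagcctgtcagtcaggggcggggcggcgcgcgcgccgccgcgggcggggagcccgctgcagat (chr3:52268087-52268386, plus strand)
Foxo3: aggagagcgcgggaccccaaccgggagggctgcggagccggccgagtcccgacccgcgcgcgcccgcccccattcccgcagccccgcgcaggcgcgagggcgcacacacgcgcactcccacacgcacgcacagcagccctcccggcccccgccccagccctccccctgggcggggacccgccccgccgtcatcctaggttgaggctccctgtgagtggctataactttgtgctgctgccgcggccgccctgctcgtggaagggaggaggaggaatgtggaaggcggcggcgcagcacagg (chr10:42276646-42276945, minus strand)
Foxd2: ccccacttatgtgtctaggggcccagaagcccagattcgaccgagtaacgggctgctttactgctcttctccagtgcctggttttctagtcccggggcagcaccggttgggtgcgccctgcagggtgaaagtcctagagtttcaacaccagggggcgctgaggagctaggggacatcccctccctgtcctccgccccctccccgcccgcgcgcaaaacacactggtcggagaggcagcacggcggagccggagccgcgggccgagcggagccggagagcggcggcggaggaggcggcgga (chr4:114908849-114909148, minus strand)
Foxd3: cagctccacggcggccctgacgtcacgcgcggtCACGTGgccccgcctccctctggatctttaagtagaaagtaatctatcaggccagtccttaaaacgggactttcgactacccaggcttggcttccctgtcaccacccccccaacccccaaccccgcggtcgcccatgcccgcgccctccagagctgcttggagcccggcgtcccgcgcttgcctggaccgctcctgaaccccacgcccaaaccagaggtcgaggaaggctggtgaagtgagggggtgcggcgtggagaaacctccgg (chr4:99656049-99656348, plus strand)
The forkhead core TGTTTAC, searched on both strands like the other motifs, was in none of these windows and in 3.65% of the 32851 promoters of the table. Of the 28 members with a promoter there, Foxa1, which had no count, was the 1 with this core. The CCAAT box was found in 3 places for Foxo1 and not in the windows of Foxo3, Foxd2 or Foxd3, and it occurs in 37.4% of all promoters. The E-box CACGTG was in Foxd3 alone among the 28 and in 7.15% of all. TATAAA was in none of the windows shown and in 13.6% of all. No match overlapped another. GC content was 61.3% for Foxo1, 75.0% for Foxo3, 67.7% for Foxd2 and 65.7% for Foxd3, against a median of 52.7% over all promoters.

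FoxP genes fell or did not pass the test. Foxp1, a repressor in lung epithelium, muscle and blood cells (Entrez 108655, chromosome 6, 98925342 to 99522746), had 61.7, 57.8 and 67.3 CPM on day 3, 56.4, 56.1 and 56.5 CPM on day 7, and 31.9, 31.9 and 42.9 CPM on day 10. Day 10 lay under both earlier days, with a log2 change of -0.66 (SE 0.12, edgeR adjusted p = 0.0116) against day 7. Foxp4 (Entrez 74123, chromosome 17, 47867133 to 47924632) had 80.6, 80.5 and 84.9 CPM on day 3, 75.0, 78.3 and 76.7 CPM on day 7, and 59.6, 71.3 and 55.6 CPM on day 10. Its log2 change on day 10 against day 3 was -0.40 (SE 0.09, adjusted p = 0.00357). Day 10 against day 7 missed the threshold and passed without day 10 replicate 2 (adjusted p = 0.0137). Foxp2, known from speech circuits and distal lung epithelium (Entrez 114142, chromosome 6, 14901349 to 15441977), had 30.5, 31.7 and 26.2 CPM on day 3, 29.1, 30.5 and 28.5 CPM on day 7, and 20.0, 27.9 and 29.3 CPM on day 10. Its days overlapped and day 10 against day 3 missed the threshold (log2 change -0.19, SE 0.14, adjusted p = 0.253).

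Endodermal and ciliated-cell members were scarce. Foxa3, a factor of liver and gut endoderm (Entrez 15377, chromosome 7, 19013283 to 19023539), had 1, 2 and 8 counts in the day 3 libraries, 30, 17 and 19 on day 7, and 9, 32 and 39 on day 10. The log2 change on day 10 against day 3 was 2.75 (SE 0.64, edgeR adjusted p = 0.00419), at a day 10 mean of 1.03 ± 0.512 CPM and a day 3 mean of 0.157 ± 0.170 CPM. Foxa3 passed the filter through its day 7 and day 10 libraries, so a rise from day 3 was the change that it could show. The call on day 7 against day 3 (adjusted p = 0.0145) was lost without day 3 replicate 1, day 3 replicate 2 or day 7 replicate 1, with adjusted p up to 0.0626. Of 10 Foxa partners in lung endoderm, 4 were tested, and on day 10 against day 3 Sox9 rose (log2 change 0.73, SE 0.20, adjusted p = 0.0119) while Sox2 and Epcam fell. Sox9 averaged 51.3 ± 4.72 CPM on day 3 and 85.0 ± 26.5 CPM on day 10, where all 10 epithelial markers summed to at most 2.47 CPM in a library. Sox2 and Epcam averaged 1.89 and 0.599 CPM on day 3. Which cells held the Sox9 transcripts was not tested. Nkx2-1 had no count in any library. Foxj1, the regulator of motile cilia (Entrez 15223, chromosome 11, 116330704 to 116335499), averaged 0.624 ± 0.217, 0.945 ± 0.143 and 0.534 ± 0.311 CPM on the 3 days and passed no test. Of its 8 tested target genes, Tekt2 rose and the factor genes Rfx3 and Rfx2 and the cilium assembly gene Ccdc40 fell on day 10 against day 3, a smaller share than the 56.7% called over all genes.

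The remaining members are broadly expressed. Foxk2, which with Foxk1 links nutrients to metabolism (Entrez 68837, chromosome 11, 121259987 to 121309900), had 138.4, 147.9 and 144.9 CPM on day 3, 103.6, 120.0 and 105.8 CPM on day 7, and 104.6, 114.4 and 85.1 CPM on day 10. Its later libraries all lay under day 3, with a log2 change of -0.50 (SE 0.11, edgeR adjusted p = 0.00234) on day 10 against day 3. Its call on day 7 against day 3 was lost without day 3 replicate 2, day 7 replicate 1 or day 7 replicate 3, with adjusted p up to 0.0545. Foxk1 (Entrez 17425, chromosome 5, 142401497 to 142462015) had 91.8, 95.1 and 101.1 CPM on day 3, 94.1, 85.1 and 99.8 CPM on day 7, and 101.3, 101.2 and 114.1 CPM on day 10, and passed no test. Foxj2 (Entrez 60611, chromosome 6, 122820184 to 122845366) had 44.3, 45.9 and 45.7 CPM on day 3, 60.0, 61.7 and 61.7 CPM on day 7, and 63.2, 70.5 and 64.8 CPM on day 10. Those 3 days did not overlap, and the log2 change on day 10 against day 3 was 0.55 (SE 0.07, adjusted p = 7.85e-05). Foxj3 (Entrez 230700, chromosome 4, 119539661 to 119629119) had 71.2, 77.9 and 71.4 CPM on day 3, 72.7, 66.2 and 68.5 CPM on day 7, and 73.6, 81.5 and 78.0 CPM on day 10, and passed no test.

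Foxn2 and Foxn3, relatives tied to cell cycle checkpoints, moved in opposite directions. Foxn2 (Entrez 14236, chromosome 17, 88440704 to 88490533) had 40.4, 47.3 and 44.4 CPM on day 3, 54.8, 56.9 and 54.2 CPM on day 7, and 63.8, 74.1 and 60.0 CPM on day 10. No days overlapped, and the log2 change on day 10 against day 3 was 0.58 (SE 0.09, edgeR adjusted p = 0.000446). Its call on day 7 against day 3 was lost without day 3 replicate 1 or day 7 replicate 2, with adjusted p up to 0.0791. Foxn3 (Entrez 71375, chromosome 12, 99190081 to 99563667) had 24.6, 31.2 and 25.1 CPM on day 3, 26.4, 25.1 and 22.6 CPM on day 7, and 16.7, 20.6 and 24.4 CPM on day 10. Its log2 change on day 10 against day 3 was -0.39 (SE 0.15, adjusted p = 0.0427), a call lost in 9 of 20 alternatives. It was lost without day 3 replicate 2 (adjusted p = 0.171) or 3, without any single day 7 library, without day 10 replicate 1 or 2, and when the fit had a replicate block (adjusted p = 0.0510). Foxf1, Foxk1 and Foxp2 were among the tested members that passed in no pair of days. In the test among all 3 days, 16 members passed, where 53.5% of all genes did.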

How the data were processed

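Poly(A) RNA libraries were made with the TruSeq kit, per the labels' protocols. The authors deposited raw read counts per gene, whole numbers under Entrez IDs, counted by featureCounts on build mm10 according to the submitters' processing notes. The sources used here name no aligner, annotation, strand setting or rule for reads shared between similar genes, so values of overlapping genes are uncertain. Of 27179 rows, 25275 were named from RefSeq.

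From these counts, genes were kept by filterByExpr (14940), scaled by TMM and fitted with edgeR 4.0.16 (R 4.3.3) robust quasi-likelihood over all 9 libraries, which share 1 estimate of spread (biological coefficient of variation 0.146). F tests were adjusted by Benjamini-Hochberg over all genes, with a threshold of 0.05. SE is the absolute log2 change over the square root of F. Levels are TMM-normalised CPM, mean ± SD over 3 libraries, and per kb of GENCODE M21 exons between genes. Replicates of a day differed by more than counting noise (chi-square per degree of freedom 8.05 to 127). Intervals and floors reflect counting error alone, because PCR copies of 1 molecule cannot be recognised without molecular identifiers. A few results that these rules would name are not reported here. The members and lists were chosen with earlier results of these data known. Members with a mean of at least 5 CPM on a day, or a called log2 change of at least 1, and those long tied to lung were given by library, and up to 4 called genes with the highest mean from each list; Cdc25b, Gli1, Smo, Tekt2, Fgf10, Wnt2, Fendrr and Foxd2os were chosen after their values were seen. Alternatives were other scalings, filters, DESeq2 1.42.0, a replicate block and left-out libraries.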

Additional observations from a re-analysis of the deposited data

How the results depend on the processing

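None of 1887 log2 changes of the 24 tested members under 20 alternatives turned a called direction round. Of these, 1833 kept their side of the threshold, 36 lost a call and 18 gained one. Leaving out 1 library at a time gave 10 to 14 members called on day 7 against day 3 (12 with all libraries), 2 to 4 on day 10 against day 7 (3), 14 to 16 on day 10 against day 3 (16), 14 to 17 among the 3 days (16) and 3 to 5 between the steps (4). Without day 3 replicate 2 and day 10 replicate 3 together these were 13, 4, 16, 16 and 4. DESeq2 called 6 members on day 10 against day 7. Over all genes, day 10 against day 7 gave 1271 calls in edgeR, 2114 in DESeq2, 290 with day 3 left out of the fit, and 304 (without day 7 replicate 2) to 1548 over left-out libraries. Between the steps there were 1199, and 552 (without day 7 replicate 1) to 1817 (without day 10 replicate 3) over left-out libraries. Library size alone moved the split on day 10 against day 7 to 437 higher and 675 lower (39.3% higher), against 659 higher and 612 lower (51.8%) with TMM. The cause of these shifts was not tested. The labels do not say what a replicate number shares across days. Of 9 same-numbered pairs, 5 had a correlation of deviations over 0.1 (range -0.069 to 0.433) and 4 did not, and not every sample correlated best with its own number, so the numbers were not taken as pairs. With the replicate as a block, 13, 3, 16, 16 and 3 members were called; on day 10 against day 3, 15 of the 16 were shared, with Foxc1 gained and Foxn3 lost. Depth limits statements on the 20 members that were not tested, at 0.576 CPM or less.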

Other observations

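Markers of other cells that the cultures could hold also moved between days. Of 9 red cell markers, 8 were tested and 7 fell on day 10 against day 3, and their sum was 1.34 to 2.97 CPM on day 10 and 1062 to 1265 CPM on day 3. Of 8 endothelial markers, Kdr, Tek and Erg fell on day 10 against day 3, a smaller share than the 56.7% called over all genes. Pecam1, Cdh5, Tie1, Flt1 and Emcn were not called in this comparison. The 8 summed to 129.3 to 144.4 CPM on day 10 and 183.3 to 219.2 CPM on day 3. Most of this sum was Emcn, at a mean of 109 CPM on day 10 and 111 CPM on day 3 (edgeR adjusted p = 0.833). The sum therefore does not stand for these markers as a group. The surface protein gene Emcn was highest on day 7, with a log2 change of 0.73 (SE 0.11) on day 7 against day 3 and -0.76 (SE 0.11) on day 10 against day 7 (edgeR adjusted p = 0.000728 and 0.00702). Of 6 mesothelial markers, Wt1, Lrrn4 and Aldh1a2 were tested and fell, with sums of 18.0 to 28.6 CPM on day 10 and 68.9 to 90.0 CPM on day 3. Leukocyte markers summed to 3.16 to 6.60 CPM on day 10 and 6.63 to 9.66 CPM on day 3. Their part in the forkhead levels was not tested.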
